A study of Mus musculus with 22 samples.

Results

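Heme synthesis was followed in differentiating mouse erythroid cells through the histone marks at 9 of its genes, Alas2, Alad, Uros, Urod, Cpox, Ppox, Fech, Slc25a38, and Abcb10. They are 9 of the 21951 protein-coding genes of GENCODE M21 and were chosen by name for their place in the pathway, not by a measured value. Earlier results of these data were known when the list was made. Each locus was the gene body plus 20 kb on either side, in GRCm38, the assembly also called mm10. Every peak of the deposited lists that touched a locus was examined.

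The cells were G1E-ER4 (G1ER) cells, an established line of mouse erythroid progenitors. The line lacks a functional Gata1 gene and carries GATA1 fused to the ligand-binding part of the estrogen receptor, so that β-estradiol activates the fusion protein and differentiation follows. All groups shared this deletion and this transgene, and all were grown with stem cell factor and erythropoietin. The groups were untreated cells (0 h) and cells after 2, 6, 12, or 24 h of β-estradiol. H3K4me3, a mark of active promoters, and H3K27ac, a mark of active promoters and enhancers, had 2 lists at each time point, and CTCF, which binds loop anchors, had 1 list at 0 h and 1 at 24 h. The replicates are described as independent experiments, made in 1 subclone with a transgene, so the p-values below measure the spread between experiments in this line. Where both lists of a time point have no peak or fill a window, they show no spread, and p-values that rest on them do not measure it.

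The H3K4me3 lists held 12925 to 14452 peaks and the H3K27ac lists 17247 to 18333, with median lengths of 2069 to 2228 bp and 2132 to 2280 bp. Each peak had a score from the authors' peak caller, from 50.0 upwards, and no list held read counts, so the depth behind each peak is unknown. In the text below a score is given as a percentile, its rank within its own list from 0 (lowest) to 100. Of 8 erythroid marker genes that could be matched, 5 had an H3K4me3 peak over the transcription start site (TSS) in all 10 lists, among them Klf1, Slc4a1, and Hba-a1, whereas Tal1 had none in any list. None of the 12 T cell, B cell, liver, or muscle markers had a peak of either mark over the TSS. Of 3 mast cell markers, Cpa3 and Ms4a2 had an H3K4me3 peak in 7 and 9 lists and Mcpt8 in none.

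Heme is built from glycine and succinyl-CoA in a chain of reactions that starts and ends in the mitochondrion. ALAS2, the erythroid form of the rate-limiting enzyme, makes aminolevulinic acid from glycine that the carrier SLC25A38 is thought to bring into the mitochondrion. In the cytosol ALAD makes porphobilinogen, UROS closes the tetrapyrrole ring, and UROD removes carboxyl groups. CPOX and PPOX oxidize the product to protoporphyrin, into which FECH inserts iron. ABCB10, a transporter of the inner mitochondrial membrane, is required for hemoglobin synthesis in red cells. GATA1 is known to activate heme genes and binds DNA at the letters WGATAR.

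Sequences of the loci are shown first because the regions described below were listed at different times over windows that do or do not hold these letters. The letters searched on both strands were GATA with A or T before it and A or G after it (WGATAR, called GATA here), CCNCNCCC (the letters of KLF1-type factors), and TGANTCA (NFE2-type). Promoter windows of 300 bases, 250 before and 50 after a RefSeq start (GRCm38.p6), are given for 8 of the 9 genes, in 10 windows. Fech was left out. GATA letters stood in 3 of the 10 windows, those of Alas2, Cpox, and the downstream start of Uros, against 29.8% of all 32851 RefSeq promoter windows. KLF letters stood in 8 of the 10, against 49.5%, and NFE2 letters in none, against 7.81%. The windows of Alad overlap in part and all hold KLF letters, so the 10 are not independent. By gene, KLF letters were found for 7 of the 8. A match is a description of the letters and not a bound site. In the sequences below GATA matches are in capitals, on either strand.

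The Alas2 promoter window, chrX:150547167-150547466 (+ strand), holds 1 GATA match and 4 KLF matches, and its last 92 bases lie in the first, noncoding exon of the longer GENCODE transcript:
Alas2 promoter: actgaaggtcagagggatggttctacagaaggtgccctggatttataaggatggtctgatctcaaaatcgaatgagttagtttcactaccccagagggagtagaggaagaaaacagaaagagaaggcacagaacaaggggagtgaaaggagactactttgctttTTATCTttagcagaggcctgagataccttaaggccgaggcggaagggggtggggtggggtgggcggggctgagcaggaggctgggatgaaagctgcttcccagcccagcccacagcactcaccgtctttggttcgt
The window at the downstream Uros start, chr7:133702451-133702750 (- strand), holds 2 GATA matches and lies mostly in the first intron of the longest transcripts:
Uros downstream promoter: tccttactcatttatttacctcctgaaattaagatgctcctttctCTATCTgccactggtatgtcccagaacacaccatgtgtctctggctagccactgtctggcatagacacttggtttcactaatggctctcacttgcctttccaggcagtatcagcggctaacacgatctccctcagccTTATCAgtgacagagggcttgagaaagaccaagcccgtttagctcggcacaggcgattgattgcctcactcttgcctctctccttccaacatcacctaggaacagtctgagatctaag
The Cpox promoter window, chr16:58669958-58670257 (+ strand), holds 3 GATA matches, which overlap in part, and lies wholly upstream of the annotated transcript:
Cpox promoter: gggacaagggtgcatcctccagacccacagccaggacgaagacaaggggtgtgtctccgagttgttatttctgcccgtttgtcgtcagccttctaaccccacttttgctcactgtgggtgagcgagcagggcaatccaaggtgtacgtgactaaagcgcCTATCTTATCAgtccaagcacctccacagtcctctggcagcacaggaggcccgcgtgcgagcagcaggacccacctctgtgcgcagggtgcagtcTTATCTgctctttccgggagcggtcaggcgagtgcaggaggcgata
Inside Alas2, a stretch of an H3K27ac region, chrX:150563892-150564191 (+ strand), holds 2 GATA matches and 1 NFE2 match, with 34 bases of coding exon 8 at its start and intron 8 after them:
Alas2 intronic region: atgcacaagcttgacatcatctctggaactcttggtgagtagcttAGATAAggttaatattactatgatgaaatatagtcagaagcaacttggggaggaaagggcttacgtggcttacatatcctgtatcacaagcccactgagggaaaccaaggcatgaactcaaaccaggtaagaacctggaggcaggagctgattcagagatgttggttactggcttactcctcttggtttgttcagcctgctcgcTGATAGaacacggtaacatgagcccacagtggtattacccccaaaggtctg
Upstream of Abcb10, a stretch of another H3K27ac region, chr8:123989872-123990171 (- strand), holds 4 GATA matches and lies in an intron of the predicted gene Gm20388:
Abcb10 upstream region: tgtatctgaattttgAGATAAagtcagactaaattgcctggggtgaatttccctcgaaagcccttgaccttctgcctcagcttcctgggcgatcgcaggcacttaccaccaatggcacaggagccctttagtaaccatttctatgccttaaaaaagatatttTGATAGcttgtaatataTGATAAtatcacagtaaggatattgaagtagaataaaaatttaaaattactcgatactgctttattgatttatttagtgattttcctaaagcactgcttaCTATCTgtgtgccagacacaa

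The last 2 stretches were taken from the core of their regions as the 300 bases with the most GATA matches, and so the number of matches in them is no finding. Over whole regions, the Alas2 intronic region held 3.49 GATA matches per kb and the Alas2 TSS region 2.75, and the Abcb10 upstream region held 2.67. Across all 21011 H3K27ac regions the median was 1.89 per kb and the upper quartile 2.74. The intronic region of Alas2 thus lay above the upper quartile and below the 90th percentile, 3.76 per kb. Upstream of Cpox, a region of 601 bp with a peak in only 2 lists held 4.99 per kb, above that percentile. A longer Cpox region, described below, held 3.26. Regions of Fech were left out of these values. The H3K27ac regions over the TSS of Alad (1.79), Abcb10 (1.70), Urod (1.34), and Ppox (1.16) were below the median. Those at the main and downstream starts of Uros (2.44 and 2.52) were above it.

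The first question was where either mark was listed over the start of these genes. An H3K4me3 peak covered the TSS in 85 of the 90 combinations of gene and list, and in all 10 lists for 7 of the 9 genes. H3K27ac was listed over the TSS in 42 of the 90. Uros, Urod, and Ppox had H3K27ac there in all 10 lists, Cpox, Fech, and Slc25a38 in none, and Alas2, Alad, and Abcb10 only at some time points. Of all protein-coding genes, 41.8% had H3K4me3 and 36.5% H3K27ac over the TSS in all 10 lists. The 3 genes with H3K27ac at some time points changed in different directions, as the following paragraphs and the plot of TSS peaks by gene show.

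**Figure D1:**
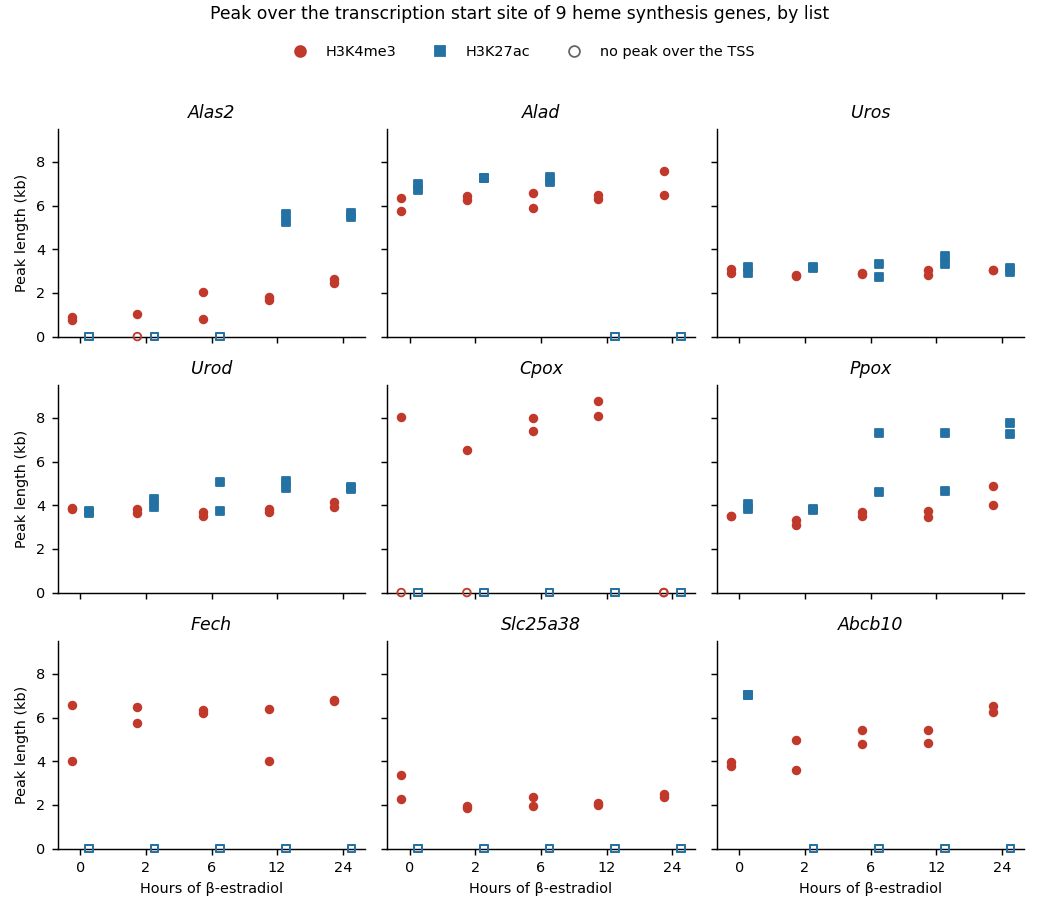
Length in kb of the peak that covers the TSS of each of the 9 genes (y axis) against hours of β-estradiol (x axis), with 1 point per list, 2 lists per mark and time point, circles for H3K4me3 and squares for H3K27ac. Open symbols at 0 are lists with no peak over the TSS: Alas2 has filled squares at 12 and 24 h only, Alad up to 6 h only, and Abcb10 at 0 h only.

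For each mark, overlapping peaks of its 10 lists were joined into consensus regions, 16244 for H3K4me3 and 24299 for H3K27ac, of which 26 and 24 touched the 9 loci. The covered length of each region with a peak in at least 2 lists (25 and 22 at the loci) was compared between 24 h and 0 h with limma across all regions on log2(bp + 200). None of the 25 H3K4me3 regions passed the threshold of 0.05 on the adjusted p, against a background of 1.58% of all regions, and 3 had an unadjusted p below 0.05, beside 12.4% of all regions. For H3K27ac, 3 of 22 passed, against a background of 6.32%, and 8 had an unadjusted p below 0.05, beside 21.2% of all regions. The region over the Alas2 TSS was longer at 24 h, and those over the Alad and Abcb10 TSS were shorter or not listed. The Abcb10 region, like its 2 kb window below, entered the fit only through its 2 lists at 0 h, so its call is no support for a loss. The median log2 difference of the members was 0.03 for H3K4me3 and 0.15 for H3K27ac, beside -0.04 and 0.01 over all regions. For the score percentile none of the 25 (background 2.3%) and none of the 22 (background 4.51%) passed in limma, with 7 and 4 at an unadjusted p below 0.05, beside 20.4% and 19.8% of all regions. Within 2 kb of the TSS, 0 of 9 H3K4me3 windows passed (background 0.28%). At an unadjusted p below 0.05 there were 0 of these 9, beside 7.63% of all windows. Of 6 H3K27ac windows 2 passed (background 1.59%), those of Alad and Abcb10. At an unadjusted p below 0.05 there were 5 of the 6 H3K27ac windows, beside 13.8% of all windows. An exact permutation test of 2 lists against 2 cannot go below p = 0.333, and the differences were tested with the fit across all regions.

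Alas2 lies on the X chromosome (chrX:150547375-150570638, + strand, 11 exons), and on the opposite strand GENCODE draws long transcripts of Apex2 across it. H3K4me3 started narrow at its TSS. The peaks measured 752 and 892 bp at 0 h. At 2 h the lists gave 1041 bp in replicate 1 and no peak in replicate 2. At 6 h the lengths were 2059 and 812 bp, at 12 h 1658 and 1813 bp, and at 24 h 2466 and 2627 bp. Both lists at 24 h were longer than every earlier list. The peaks reached further into intron 1, from 704 and 874 bp past the TSS at 0 h to 2353 and 2412 bp at 24 h, and no further than 243 bp upstream of it in any list. The log2 difference of region length was 1.43 (SE 0.76, limma adjusted p = 0.53), and the list without a peak at 2 h is part of that spread. Without replicate 1 or replicate 2 at 2 h it did not pass either, and with only the 4 lists at 0 h and 24 h it did (SE 0.11, limma adjusted p = 0.032). The score percentile stood at 13.1 and 5.07 at 0 h and at 25.4 and 30.3 at 24 h, a difference of 18.8 points (SE 4.81, limma adjusted p = 0.086). With a linear trend over the 5 time points it rose by 5.13 points per time point (SE 1.08, limma adjusted p = 0.042). Without replicate 1 at 2 h the difference between 24 h and 0 h also passed (limma adjusted p = 0.0499). In the trend 2 of 25 H3K4me3 regions passed, against a background of 3.55%, and the other was the region at the Cldnd1 TSS near Cpox, which fell.

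H3K27ac at Alas2 lay inside the gene before it reached the TSS. In all 6 lists at 0, 2, and 6 h the peak started 1179 to 2588 bp past the TSS, ended 4124 to 5087 bp past it, near the second exon, and did not touch the TSS. In all 4 lists at 12 and 24 h it started 398 to 732 bp upstream of the TSS and ended 4844 to 5016 bp past it. The covered length was 2360 and 2757 bp (0 h), 3612 and 2574 bp (2 h), and 2194 and 3204 bp (6 h). It was 5243 and 5615 bp at 12 h and 5651 and 5495 bp at 24 h. The 4 later lists did not overlap the 6 earlier lists, while the end inside the gene moved little. The log2 difference between 24 h and 0 h was 1.07 (SE 0.21, limma adjusted p = 0.029). The call was lost when either list at 0, 12, or 24 h was left out, with log2 differences of 0.97 to 1.17 and limma adjusted p values of 0.14 and 0.082 without replicate 1 or 2 at 0 h, 0.053 without either list at 12 h, and 0.11 and 0.10 without replicate 1 or 2 at 24 h. The score percentile of the region hardly ordered the times, with 27.3 and 37.0 at 0 h and 40.7 and 42.1 at 24 h (limma adjusted p = 0.39). Within 2 kb of the TSS the 24 h lists had 2635 and 2539 bp and the 0 h lists 0 and 633 bp (limma adjusted p = 0.30), and within 1 kb the 0 h lists had none and the comparison passed (limma adjusted p = 6.0e-05). All 6 lists up to 6 h had none within 1 kb, so they add no spread to the latter p-value. Absence over the TSS in the 6 lists up to 6 h with presence in the 4 later lists was seen at 3 of 21866 genes with a usable TSS, Alas2 included, a count made after the Alas2 values were seen.

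**Figure D2:**
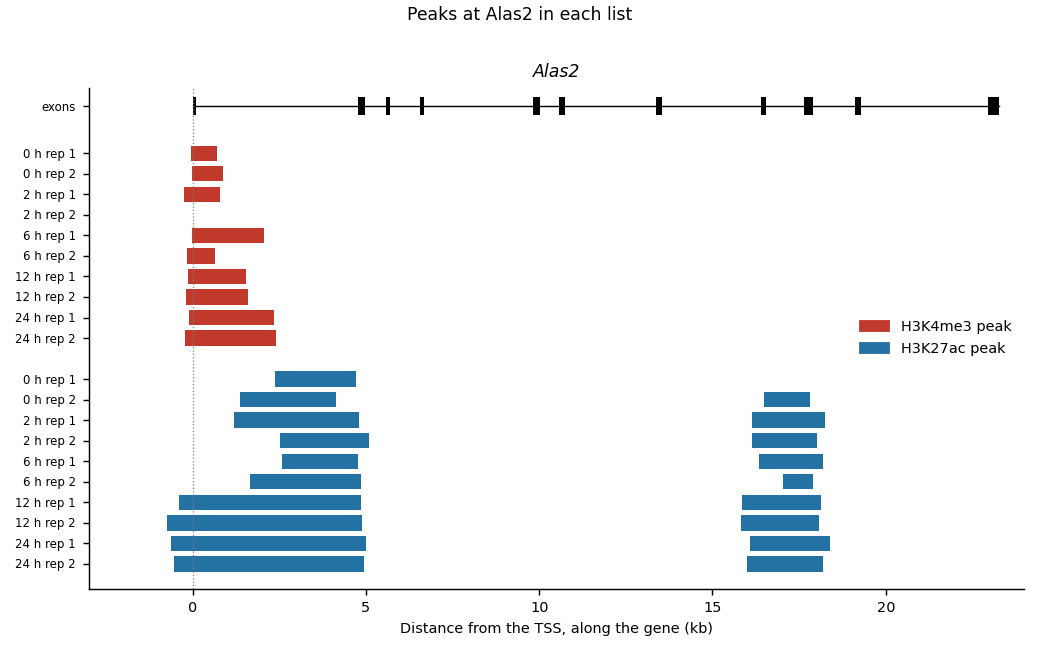
Peaks along Alas2 in each of the 20 histone lists (rows, ordered by hours of β-estradiol and replicate, H3K4me3 above and H3K27ac below), drawn to scale against distance from the TSS in kb, with exons on top. H3K27ac starts 1179 to 2588 bp inside the gene up to 6 h and 398 to 732 bp upstream of the TSS from 12 h on, while H3K4me3 extends from the TSS into intron 1.

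The other H3K27ac region of Alas2 (chrX:150563193-150565773) lay 15.8 to 18.4 kb past the TSS, across introns 7, 8, and 9 with the exons between them, and introns made up 83.2% of it. No peak was listed there in replicate 1 at 0 h and one of 1325 bp in replicate 2. At 2 h the lengths were 2098 and 1867 bp, and at 6 h 1846 and 878 bp. At 12 h they were 2273 and 2249 bp and at 24 h 2306 and 2214 bp. The 0 h lists were below the 24 h lists in length and in percentile (none and 22.4, against 42.2 and 39.4), but 1 list at 6 h was shorter than the longer list at 0 h. The difference did not pass (limma adjusted p = 0.22 for length and 0.14 for score), and without replicate 2 at 0 h, when only the list with no peak stands for 0 h, it did (limma adjusted p = 0.0073). Neither region of Alas2 was counted as gained or lost. Over all Alas2 introns H3K27ac covered 2360 and 3838 bp at 0 h and 6582 and 6443 bp at 24 h.

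Alad (chr4:62509169-62519918, - strand, 12 exons) kept a wide H3K4me3 peak over its TSS in all 10 lists, 5744 to 7568 bp long, mostly over intron 1. The lengths were 6366 and 5744 bp at 0 h and 6499 and 7568 bp at 24 h (difference in log2 length 0.21 ± 0.09 SE, limma adjusted p = 0.45). H3K27ac covered nearly the same stretch up to 6 h. Its peaks measured 6992 and 6726 bp (0 h), 7275 and 7268 bp (2 h), and 7061 and 7291 bp (6 h). They started 1710 to 2128 bp upstream of the TSS and ended 4879 to 5378 bp past it. At 12 and 24 h none of the 4 lists held a peak over the TSS. The same order, present in 6 lists and absent in the 4 later ones, was seen at 3 of 21866 genes, also counted after the values were seen.

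The neighboring Pole3 promoter, which the merging joined to Alad, kept its own H3K27ac peak in every list. The covered length of the joint region therefore fell from 9860 and 8786 bp at 0 h to 3521 and 2690 bp at 24 h (difference in log2 length -1.54 ± 0.14 SE, limma adjusted p = 0.0014), with 2333 and 2085 bp at 12 h. Within 2 kb of the Alad TSS alone the comparison gave a limma adjusted p of 1.8e-06, from 3928 and 3847 bp at 0 h to none at 24 h. Both lists at 2 h filled this window (4001 bp) and those at 12 and 24 h had 0 bp. These lists show no spread, so that p-value does not measure the spread between experiments. The Alad peaks that dropped out were long and of low rank, with percentiles of 18.6 to 44.3. When only peaks scoring at least the median of all H3K27ac peaks (242) were kept, none of the Alad TSS peaks, with scores up to 204, remained, and the joint region did not pass (limma adjusted p = 0.61). Whether the acetylation itself fell there was not tested, because the lists carry no signal below the caller's threshold.

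Uros (chr7:133686243-133710072, - strand, 10 exons) had a pair of marked starts. The annotated main TSS lies beside that of Bccip, and the RefSeq downstream start is 6781 bp inside the gene. Over the main TSS both marks were narrow and of high rank in every list, 2783 to 3098 bp for H3K4me3 (percentiles 81.4 to 92.9) and 2708 to 3692 bp for H3K27ac (86.0 to 98.2). The log2 differences between 24 h and 0 h were 0.02 (SE 0.05, limma adjusted p = 0.95) and -0.0021 (SE 0.11, limma adjusted p = 1). These peaks cannot be assigned to Uros or to Bccip. Around the downstream start H3K4me3 covered 1792 and 2002 bp at 0 h and 2254 and 2428 bp at 24 h (difference in log2 length 0.28 ± 0.11 SE, limma adjusted p = 0.36). H3K27ac there was wide, 6348 and 6255 bp (0 h), 7534 and 7866 bp (12 h), and 8063 and 7432 bp (24 h) (difference in log2 length 0.29 ± 0.09 SE, limma adjusted p = 0.13). Its percentile was 45.2 and 45.1 at 0 h and 20.7 and 31.8 at 24 h (limma adjusted p = 0.26). Both 24 h lists were longer and lower in rank than both 0 h lists, and neither difference passed the threshold.

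Urod (chr4:116989965-116994413, - strand, 10 exons) shares its promoter region with Hectd3. H3K4me3 covered 3498 to 4168 bp in all 10 lists (difference in log2 length 0.07 ± 0.05 SE, limma adjusted p = 0.71). H3K27ac covered 3736 and 3631 bp (0 h), 4277 and 3926 bp (2 h), 3746 and 5048 bp (6 h), 5105 and 4798 bp (12 h), and 4837 and 4761 bp (24 h). All 4 lists at 12 and 24 h were longer than both lists at 0 h, by a log2 difference of 0.36 at 24 h (SE 0.13, limma adjusted p = 0.17). The difference passed without replicate 1 or without replicate 2 at 6 h (limma adjusted p = 0.031 in each case).

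Ppox (chr1:171275990-171281186, - strand, 13 exons) had H3K4me3 over its TSS at 3518 and 3499 bp at 0 h and 4031 and 4878 bp at 24 h (difference in log2 length 0.32 ± 0.09 SE, limma adjusted p = 0.17), and without replicate 1 at 24 h the difference passed (limma adjusted p = 0.045). The H3K27ac region over the Ppox TSS also holds an annotated start of Usp21, so its peaks cannot be assigned to Ppox alone. The H3K27ac peaks fell into a short and a long form. They measured 4072 and 3805 bp (0 h), 3820 and 3801 bp (2 h), 4626 and 7293 bp (6 h), 7317 and 4656 bp (12 h), and 7767 and 7248 bp (24 h). The short form ended 2174 to 2837 bp past the TSS and the long form 5368 to 5635 bp past it, beyond the end of the gene. The 4 long peaks had percentiles of 27.5 to 35.9 and the 6 short peaks 76.7 to 92.6. Both lists at 24 h held the long form and all 4 lists at 0 and 2 h the short form. The log2 difference between 24 h and 0 h was 0.90 (SE 0.26, limma adjusted p = 0.10), and the percentile differed by -51.8 points (SE 16.4, limma adjusted p = 0.13). Length rose and rank fell together, and neither passed the threshold.

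Cpox (chr16:58670292-58717636, + strand, 7 exons) had the longest H3K4me3 peaks of the 9 genes, 6540 to 8791 bp where listed. A peak covered the TSS in 6 of 10 lists, in replicate 1 at 0 h (8034 bp), replicate 2 at 2 h (6540 bp), both at 6 h (8005 and 7410 bp) and both at 12 h (8791 and 8064 bp). It was not listed in the other list at 0 h and 2 h or in either list at 24 h. The peaks ran from at most 1374 bp upstream of the TSS to 5514 to 7911 bp past it. Their percentiles were 4.62 to 37.0, and the difference between 24 h and 0 h did not pass (limma adjusted p = 0.69). Because the 0 h lists disagreed, the region did not count as lost. No H3K27ac peak covered the Cpox TSS in any list. A distal H3K27ac region 5.3 to 10.2 kb upstream, chosen for mention after its values were seen, was listed in 9 of 10 lists at 3889 to 4845 bp and was absent in replicate 1 at 0 h (limma adjusted p = 0.36). It held 3.26 GATA matches per kb, and a CTCF peak lay inside it at 0 h and at 24 h. Inside the gene a short peak about 42 kb past the TSS, beyond the main transcript and in an intron of a minor one, was listed for H3K4me3 in all 10 lists (767 to 1252 bp) and for H3K27ac in 7 (570 to 786 bp). The Cldnd1 promoter at the far end of the locus fell in H3K4me3 percentile, with 86.4 and 80.9 in the 0 h lists and 61.0 and 64.8 in the 24 h lists (linear trend, limma adjusted p = 0.038, and limma adjusted p = 0.069 for 24 h against 0 h).

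Fech (chr18:64452914-64490251, - strand, 11 exons) had H3K4me3 over its TSS in all 10 lists. The length was 3990 bp in replicate 1 at 0 h and 6557 bp in replicate 2, 3997 bp in replicate 2 at 12 h, and 5747 to 6802 bp in the remaining lists, with 6802 and 6769 bp at 24 h. The log2 difference was 0.39 (SE 0.25, limma adjusted p = 0.65), less than the spread between the 0 h lists. No H3K27ac peak covered the Fech TSS in any list. In the gene body H3K27ac was listed once, 1199 bp in introns 2 and 3 in replicate 2 at 6 h at a percentile of 4.27.

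Among the carriers, Slc25a38 (chr9:120110374-120124504, + strand, 7 exons) had H3K4me3 over the main TSS in all 10 lists, from 1876 to 3355 bp, at 2248 and 3355 bp at 0 h and 2382 and 2498 bp at 24 h (difference in log2 length -0.16 ± 0.16 SE, limma adjusted p = 0.76). A second H3K4me3 region over further annotated starts, 4.0 to 7.7 kb past the main TSS, was listed in 9 lists at 2726 to 3765 bp and was absent in replicate 2 at 24 h (limma adjusted p = 0.63). Without replicate 1 at 24 h, when only the list with no peak stands for 24 h, that difference passed (limma adjusted p = 0.00011). No H3K27ac peak covered the Slc25a38 TSS in any list.

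Abcb10 (chr8:123952459-123983122, - strand, 13 exons) had regions of both marks with different listed lengths at 0 h and 24 h. For H3K4me3 the difference did not pass in the main fit. H3K4me3 over the TSS measured 3763 and 3960 bp (0 h), 4982 and 3576 bp (2 h), 4785 and 5411 bp (6 h), 5434 and 4825 bp (12 h), and 6259 and 6505 bp (24 h). Both lists at 24 h were longer than every earlier list, and the added length lay in intron 1, where the peak ended 2963 and 2967 bp past the TSS at 0 h and 5394 and 5262 bp past it at 24 h. The log2 difference was 0.70 (SE 0.14, limma adjusted p = 0.066), and it passed without replicate 1 or replicate 2 at 2 h (limma adjusted p = 0.018 in each case) and with only the 4 lists at 0 h and 24 h (limma adjusted p = 0.032). The percentile moved the other way, from 53.7 and 56.8 to 39.3 and 37.3 (limma adjusted p = 0.18).

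H3K27ac covered the Abcb10 TSS in both lists at 0 h, with peaks of 7046 and 7054 bp, and in none of the 8 later lists. This was the only region of the 9 loci counted as lost between 0 h and 24 h, that is, listed in both lists at 0 h and in neither at 24 h, against a background of 4.18% of all H3K27ac regions. None was gained, against 3.43%, and for H3K4me3 none of 26 was lost (background 3.88%) or gained (background 0.456%). The fit across regions gave a limma adjusted p of 0.00025 for the region and 0.00025 for the 2 kb window. Both passed the filter of 2 lists only through the lists at 0 h. All 8 later lists stood at 0 bp with no spread, so these p-values are no support for a loss. The scores of the 0 h peaks were 50.5 and 67.4, next to the lowest score in the lists, 50.0, and their percentiles were 0.333 and 10.1. Without replicate 1 or replicate 2 at 0 h, or with equal numbers of top-scoring peaks per list, fewer than 2 lists held the region and it could not be fitted. The order of both lists at 0 h and none later was seen at 14 of 21866 genes, counted after the values were seen. Upstream of the gene, a further H3K27ac region chosen for mention after its values were seen (chr8:123985573-123993058, 2.5 to 9.9 kb before the TSS) measured 3393 and 5326 bp (0 h), 5285 and 5950 bp (2 h), 5517 and 5478 bp (6 h), 6384 and 6770 bp (12 h), and 7464 and 7445 bp (24 h). Its 4 lists at 12 and 24 h were longer than its 6 earlier lists, and its percentile was 61.4 and 46.6 at 0 h and 32.8 and 21.8 at 24 h. The log2 difference of length was 0.78 (SE 0.19, limma adjusted p = 0.067), and without replicate 2 at 0 h it was 1.09 and passed (limma adjusted p = 0.0040). A CTCF peak lay at the far end of the region at 0 h and at 24 h.

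**Figure D3:**
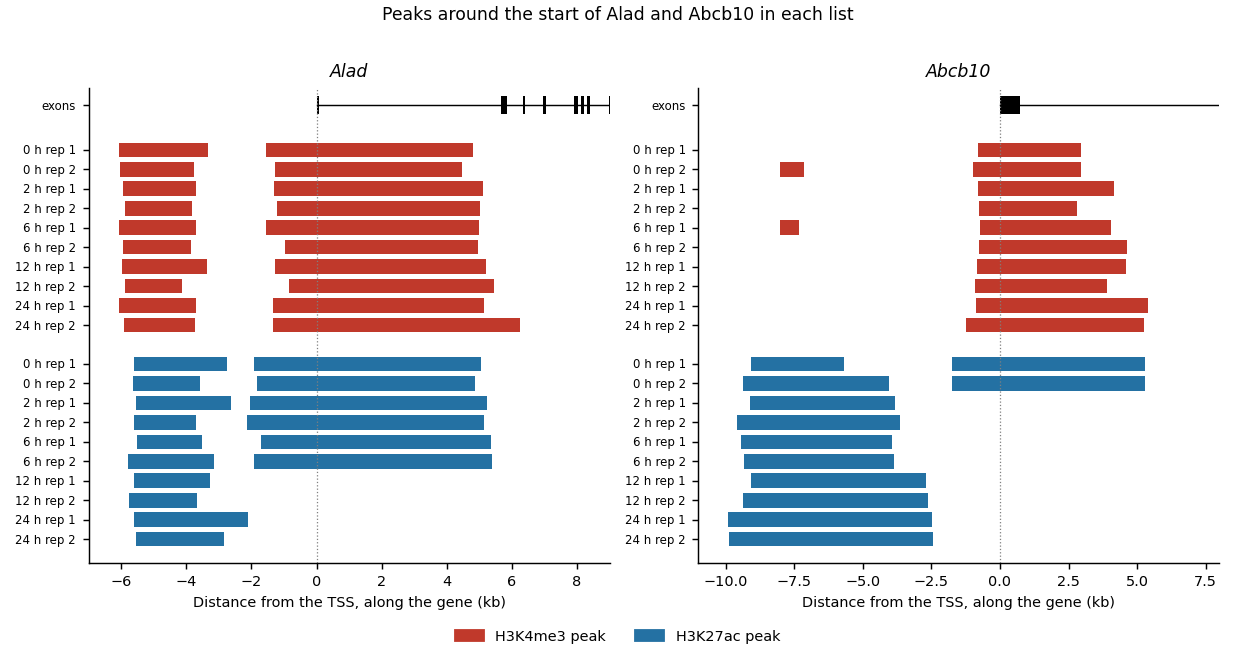
Peaks around the starts of Alad (left) and Abcb10 (right) in each of the 20 histone lists (rows, ordered by hours of β-estradiol and replicate), to scale against distance from the TSS in kb, with exons on top. H3K27ac over the Alad TSS (6726 to 7291 bp) is listed up to 6 h, that over the Abcb10 TSS (7046 and 7054 bp) at 0 h only, and the upstream Abcb10 region reaches 7464 and 7445 bp at 24 h.

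The TSS peaks of Alad, Abcb10, and Cpox that were absent from some lists were wide, whereas the Alas2 intronic H3K27ac peaks, the short H3K27ac peaks 42 kb past the Cpox TSS, and the Alas2 H3K4me3 peaks, also absent from 1 or more lists, were narrower. Across all lists both the shortest and the longest peaks had low scores. The median percentile of H3K27ac peaks was 12.3 below 1 kb, 72.7 at 3 to 4 kb, 30.02 at 7 to 8 kb, and 12.4 at 8 kb and over. For H3K4me3 it was 10.8, 73.4, 28.4, and 13.8. Of the 197 H3K27ac peaks in the 9 loci 33 were 6 kb or longer, with a median percentile of 30.4, beside 80.4 for those of 2 to 4 kb. Of the 223 H3K4me3 peaks 23 were that long, with a median percentile of 27.9 beside 67.9. Of the 181 H3K27ac regions listed in both 0 h lists at a mean of 7 to 8 kb, the size of the Abcb10 region, 12.7% had no peak at 24 h. Of the 2431 regions of 3 to 4 kb 1.28% had none, of the 4779 regions of 1 to 2 kb 8.39%, and of the 1555 regions below 1 kb 24.1%, so that the share was higher at both ends of the range. The part of width in the listed losses at Alad and Abcb10 was not tested.

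**Figure D4:**
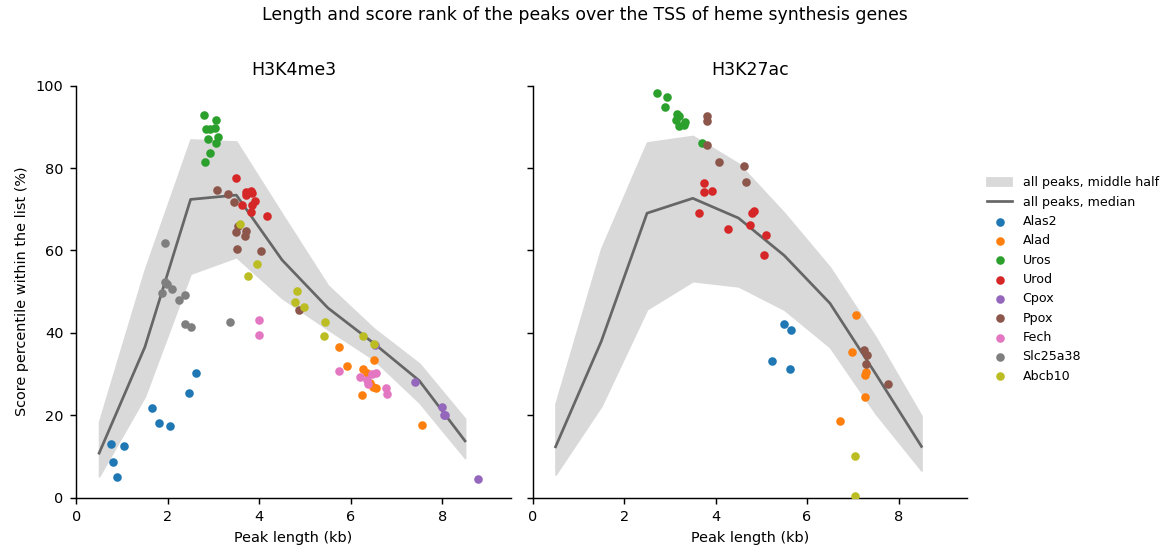
Score percentile within the list (y axis, %) against peak length in kb (x axis) for the peaks over the TSS of the 9 genes, 1 point per list and gene, with H3K4me3 left and H3K27ac right; the line and band are the median and middle 50% of all peaks by length. The long H3K27ac peaks of Alad and Ppox sit at percentiles of 18.6 to 44.3 and those of Abcb10 at 0.333 and 10.1, while Uros sits at 86.0 to 98.2.

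Absence of H3K27ac over a TSS was also set against the width of H3K4me3. Of 9137 genes with H3K4me3 over the TSS in all 10 lists, 2.99% had no H3K27ac there in any list. The share was 5.95% where the median H3K4me3 peak was below 2 kb, 0.740% at 2 to 4 kb, 6.94% at 4 to 6 kb, and 24.7% at 6 kb or longer. Fech, with a median of 6359 bp, fell in the widest class, as did Alad, with 6392 bp. Slc25a38, with a median of 2166 bp, lay near the edge between the class below 2 kb, where 102 of 1715 genes had no H3K27ac, and the class of 2 to 4 kb, where 45 of 6084 had none. Cpox was in neither class, since its own peak was listed in 6 lists only.

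**Figure D5:**
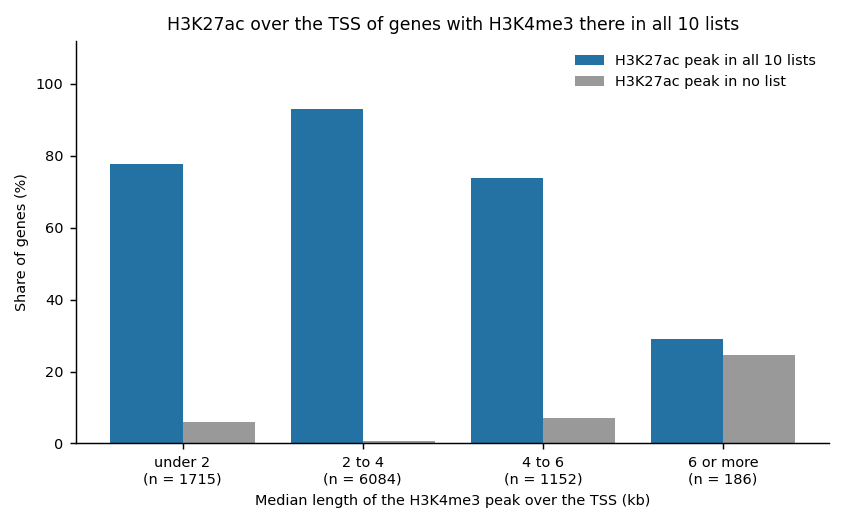
Share of genes (y axis, %) with an H3K27ac peak over the TSS in all 10 lists (blue) or in no list (gray), for the 9137 genes with H3K4me3 over the TSS in all 10 lists, by the median length of that H3K4me3 peak (x axis, kb). H3K27ac is listed in all 10 lists for 92.9% of genes in the class of 2 to 4 kb, which holds Slc25a38, for 77.8% below 2 kb, for 73.8% at 4 to 6 kb, and for 29.0% in the class of 6 kb or more, which holds Alad and Fech.

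Other genes of heme metabolism were examined by their promoter windows. Of 18 further genes (other steps of the pathway, iron-sulfur assembly, heme transport, and heme breakdown), 17 had H3K4me3 within 2 kb of the TSS in all 10 lists, and 16 had H3K27ac there in all 10 lists and 2 in none. None of the 18 H3K4me3 windows passed in limma (background 0.28%). At an unadjusted p below 0.05 there was 1, beside 7.63% of all windows. Of the 16 H3K27ac windows 2 had an unadjusted p below 0.05, beside 13.8% of all windows. Only 1 of the 16 passed (background 1.59%), that of Hebp1, which encodes a heme-binding protein. H3K27ac in the Hebp1 window covered 2284 and 2182 bp (0 h), 2667 and 2675 bp (2 h), and 2760 and 2836 bp (24 h) (difference in log2 length 0.30 ± 0.05 SE, limma adjusted p = 0.046). All 8 lists from 2 h on were longer than both lists at 0 h. The median log2 difference of the 16 windows was 0.05.

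The H3K27ac course of the Alas2 window was compared with that of all 9602 genes in the fit by Pearson's r over the 10 lists. The nearest were Zfp868 (r = 0.95), Impa2 (r = 0.94), and Dynlt1a (r = 0.93), which has near-identical neighboring copies, so that its reads are uncertain. Zfp868 rose from 1519 and 1973 bp at 0 h to 2940 and 2433 bp at 24 h. Impa2 changed little, from 3339 and 3477 bp to 3516 and 3565 bp, as did Dynlt1a, from 2126 and 2252 bp to 2365 and 2348 bp. The size of a change does not enter r. The points share their lists with Alas2, and the 3 are the highest of 9602, so r is a description only.

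CTCF at the 9 loci was listed at 27 positions at 0 h and 32 at 24 h, with no replicates. Of the 27 peaks 26 were also listed at 24 h, 1 was listed at 0 h only, at the downstream start of Uros (386 bp, percentile 1.17), and 6 were listed at 24 h only. Those 6 lay in the loci of Uros, Fech, and Slc25a38, 2 in each, with percentiles of 0.156 to 16.7. Of all 33193 CTCF peaks at 0 h 92.1% were also listed at 24 h, and of all 41473 at 24 h 26.7% were listed then only. Alas2 itself held no CTCF peak at either time, and the only CTCF peak of its locus lay 41 kb past its TSS.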

How the data were processed

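ChIP-seq peak lists of H3K4me3 and H3K27ac (10 each) and CTCF (2) in G1ER cells were analyzed. The authors aligned the reads to mm10 with Bowtie2, kept uniquely mapped reads, and called peaks per library with MACS without its model step, as stated for the histone marks. The MACS version, control, and background setting were not given in the sources used here. The deposited score is the authors' value per peak, not comparable between libraries, and was used as a rank. With no read counts deposited, the depth of a sample and the precision that follows from it are unknown. The labels also name a human build, but positions matched the mouse annotation.

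Overlapping peaks of the 10 lists of each mark were joined into consensus regions. Covered length, as log2(bp + 200), and score percentile were fitted with limma 3.58.1 (eBayes with trend, 1 mean per time point, 5 in all, peak in at least 2 lists), adjusted over all regions or genes by Benjamini-Hochberg. The step was tested on simulated data. Peaks that are present or absent depart from its normal noise. Where a whole time point had no peak, the fitted fold depends on the pseudocount and is not given. Promoter windows reached 2 kb to each side of the TSS, 1 per gene (longest transcript of the best APPRIS level). Introns are those of the same transcript.

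The 9 members and all gene lists were chosen with earlier results of these data known. Named were the 9 members by TSS regions and regions inside the gene, other regions and genes only when called, and the 3 genes most like Alas2; exceptions are stated. Alternatives are given in the closing section. No pair of lists was identical. R 4.3.3 and Python 3.11.15 with numpy 2.4.6, pandas 2.3.3, pysam 0.24.0, and matplotlib 3.10.9 were used.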

Additional observations from a re-analysis of the deposited data

How the results depend on the processing

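The counts above rest on few lists and, for several genes, on wide peaks of low score. With only the 4 lists at 0 h and 24 h, 2 H3K4me3 regions (Alas2 and Abcb10 TSS) and 5 H3K27ac regions (those of Urod and Ppox added) passed for length in place of 0 and 3. With only peaks scoring at least the pooled median of their mark, 0 H3K27ac regions and 0 H3K27ac promoter windows passed, in place of 3 and 2, since the Alas2, Alad, and Abcb10 TSS peaks all score below it. That setting applies 1 raw score to all lists, although scores are not comparable between libraries. With regions in which no peak reached 6000 bp, an alternative chosen after seeing the data, 1 H3K27ac region (Alas2) passed. For promoter windows 1 passed with a peak required in at least 5 lists, and 1 with equal numbers of top-scoring peaks. For the H3K4me3 score percentile 2 regions passed with a linear trend and 1 with equal numbers of top-scoring peaks. For H3K4me3 regions gained or lost, 1 was counted with the pooled median score, 1 with equal numbers of top-scoring peaks, and 1 where a peak had to cover 50% of the region. For H3K27ac the corresponding counts were 1, 0, and 3. With 1 list left out, the counts ranged from 0 to 2 for H3K4me3 length, 2 to 4 for H3K27ac length, 1 to 2 for H3K27ac promoter windows, and 0 to 2 for the H3K4me3 score percentile. They ranged from 0 to 4 for H3K4me3 and 1 to 3 for H3K27ac regions gained or lost. The lists behind these shifts were replicates 1 and 2 at 2 h and replicate 1 at 24 h for H3K4me3 length and score, and replicates 1 and 2 at 0 h for H3K27ac windows. For gained or lost H3K4me3 regions they were replicate 1 at 0 h (1), replicate 2 at 0 h (4), and replicate 1 at 24 h (1). For H3K27ac they were replicate 1 at 0 h (2), replicate 2 at 0 h (3), and replicate 2 at 24 h (2). H3K4me3 promoter windows and the H3K27ac score percentile gave 0 under every alternative run. Of 612 comparisons of single regions or windows with an alternative, 577 kept direction and side of the threshold. The direction turned in 12, none of which passed, 16 newly passed, and 7 lost the call, all of the latter at the Alas2 TSS region for H3K27ac. With the pooled median score the log2 difference became -2.01 for H3K4me3 at the Ppox TSS and -4.34 at the Abcb10 TSS. For H3K27ac it became 0.32 in the joint region of Alad and Pole3, where only Pole3 peaks were left, -4.37 at the Ppox TSS, and -2.08 in the Abcb10 upstream region. For H3K4me3 at the main Uros TSS the difference was -0.039 when scaled by median peak length and -0.020 to 0.062 with 1 list left out. With 1 list left out it was -0.43 to 0.11 at the main Slc25a38 TSS and -3.96 to 0.35 at its second region. The latter passed at -3.96, as stated above. For H3K27ac at the main Uros TSS it was 0.013 per time point with a linear trend and -0.070 to 0.066 with 1 list left out. Apart from the pooled median, the cause was not tested.

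Replicate numbers gave no pairing: over 10 pairs of time points per mark, the correlation of same-numbered lists' deviations ran from -0.08 to 0.03 for H3K4me3 and from -0.03 to 0.02 for H3K27ac. With a replicate block 2 H3K27ac regions passed in place of 3, Alas2 having a limma adjusted p of 0.059, and none of the other counts for the 9 genes changed. Over all regions the calls for length were 146 with the block and 734 with the 4 lists, beside 235, for H3K4me3, where leaving out replicate 1 or replicate 2 at 0 h gave 75 and 101, and 2339 with the 4 lists, beside 1327, for H3K27ac. Calls for the score percentile swung more, from 10 to 580 beside 342 for H3K4me3 and from 0 to 1149 beside 947 for H3K27ac over the alternatives run. Without read counts, no statement here can be set against depth.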
